A study of Mus musculus with 2 samples.

Results

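The Ctla2a-high HSC-1 cells of the bone marrow are haematopoietic progenitors that carry 2 deposited labels at once: cluster HSC-1, and the mouse cell atlas label of a multipotent progenitor high in Ctla2a. These 4330 cells were 42.9% of the 10088 bone marrow cells (95% interval 42.0 to 43.9%, exact Clopper-Pearson), out of 16634 cells in the series. They came from C57BL/6 mice that had received Hepa1-6 hepatoma cells in the left liver lobe at 6 to 8 weeks of age, and were sorted as LSK cells, which are lineage-low or negative, positive for Sca1 and high in c-Kit. Bone marrow and spleen gave 1 library each, the number of mice behind a library is not stated, and no tumour-free mouse was analysed here. The Ctla2a-high HSC-1 cells were set against 3 groups from these tumour-bearing mice: 5039 cells of the 7 other bone marrow clusters, 719 bone marrow HSC-1 cells with another atlas label, and 831 spleen HSC-1 cells with the same label.

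Haematopoietic stem cells sit at the top of blood formation and divide rarely, and a network of transcription regulators, among them Hlf, Mecom and Meis1, holds them in this state. When they are drawn into blood production they pass through multipotent progenitors that divide and start to express genes of the myeloid, erythroid, megakaryocyte or lymphoid lineages. The LSK gate holds stem cells together with such multipotent progenitors.

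The bone marrow library held 73740963 UMIs (unique molecular identifiers, each counting 1 captured RNA molecule), and the Ctla2a-high HSC-1 cells held 22602930 of them. Their median was 4780.5 UMIs and 2076 genes per cell, against 8538 UMIs and 3040 genes in the other bone marrow clusters. After every cell was thinned to 3000 UMIs, the medians were 1484 and 1460 genes. The median mitochondrial share was 3.23% in the Ctla2a-high HSC-1 cells and 3.27% in the other clusters. The libraries shared 16 cell barcodes, 10 of them in Ctla2a-high HSC-1 cells. With 1 library per tissue, and with clusters that were made from these same counts, no test of a difference was possible, and every comparison here is a description whose intervals cover counting error only.

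The atlas label alone did not single out the HSC-1 cluster. It was carried by 7205 bone marrow cells, 71.4% of the library, and by 85.8% of HSC-1 cells, 97.4% of LP cells, 61.0% of HSC-2 cells, 45.1% of HSC-3 cells and 3.92% of MEP cells. A further deposited label, made against another reference, called 4299 of the 4330 cells (99.3%) HSC-1, 20 HSC-3, 5 HSC-2 and 4 Neu-1. The other clusters are described here by their deposited names, which the cell table does not spell out.

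The 6 genes Ctla2a, Hlf, Mecom, Procr, Nkx2-3 and Egr1 were set as markers, and each had a higher level in the Ctla2a-high HSC-1 cells than in the other bone marrow clusters together. Levels are in CPM, the UMIs of a gene per 1000000 UMIs over the summed cells of a group. Ctla2a, which encodes a protein that inhibits cathepsin L-like proteases and gives the label its name, was at 2228 CPM (2209 to 2248) in the Ctla2a-high HSC-1 cells and at 953 CPM in the other clusters, 2.34-fold higher (2.31 to 2.37). The 7 other clusters lay between 447 CPM, in MEP, and 1055 CPM, in DCP. The cells were chosen in part by a label named for Ctla2a, so its high level follows in part from that choice. HSC-1 cells with another label were also above these 7 clusters, as given below. Hlf, a PAR bZIP factor of stem cell self-renewal (mm10 chromosome 11, 90336536 to 90390895, minus strand), was at 670 CPM against 266 CPM, 2.52-fold higher (2.46 to 2.58). Mecom, which encodes the zinc finger factor Evi1 (chromosome 3, 29951296 to 30548008, minus strand), was at 157 CPM against 68.9 CPM, 2.29-fold higher (2.18 to 2.40). Procr, the endothelial protein C receptor used to sort stem cells (chromosome 2, 155751117 to 155755471, plus strand), was at 55.2 CPM against 14.8 CPM, 3.73-fold higher (3.39 to 4.09). The homeobox gene Nkx2-3 (chromosome 19, 43612325 to 43615892, plus strand) was at 106 CPM against 38.4 CPM, 2.75-fold higher (2.59 to 2.92). Egr1, an immediate early zinc finger factor tied to stem cell quiescence, was at 609 CPM against 188 CPM, 3.24-fold higher (3.15 to 3.33), but the small MCP cluster, at 1066 CPM, and the other-labelled HSC-1 cells, at 774.5 CPM, were higher still.

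At an equal depth of 3000 UMIs, which 4106 of the 4330 Ctla2a-high HSC-1 cells and 4942 of the cells in other clusters reached, the markers were also found in more of the cells. MEP cells, whose median depth was 11230 UMIs before thinning against 4780.5 in the Ctla2a-high HSC-1 cells, stand for cells that should lack the stem cell genes. Ctla2a was seen in 98.1% of Ctla2a-high HSC-1 cells, 82.0% of cells in other clusters and 55.5% of MEP cells; without thinning the shares were 99.2%, 93.6% and 75.4%. Hlf was seen in 79.2%, 45.5% and 15.2% of the same groups, and in 89.0%, 68.4% and 30.5% without thinning. Mecom was seen in 35.9%, 19.0% and 5.67%, and in 50.7%, 39.4% and 13.4% without thinning. Egr1 was the exception to the order, since 59.9% of Ctla2a-high HSC-1 cells and 46.9% of MEP cells held it, against 30.7% over the other clusters. Without thinning, Egr1 was in 68.7% of Ctla2a-high HSC-1 cells, 49.7% of cells in other clusters and 68.3% of MEP cells. Nkx2-3 was in 26.3% of thinned Ctla2a-high HSC-1 cells, 11.6% of cells in other clusters and 2.69% of MEP cells, with 38.2%, 25.6% and 7.84% before thinning. Procr was in 14.6%, 4.71% and 1.49%, with 23.0%, 11.5% and 4.76% before thinning. At least 3 of the 6 markers were seen in 70.3% of Ctla2a-high HSC-1 cells and in 29.2% of cells in other clusters, and all 6 in 47 Ctla2a-high HSC-1 cells (1.14%). The share with at least 3 was larger in the other-labelled HSC-1 cells, at 78.6%, and 49.6% in spleen HSC-1 cells of the same label. Hlf, Mecom and Procr were found together in 234 of 4106 Ctla2a-high HSC-1 cells (5.70%) and in 58 of 4942 cells of other clusters (1.17%). They were together in 53 of 679 other-labelled HSC-1 cells (7.81%) and in 38 of 819 spleen HSC-1 cells of the same label (4.64%).

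**Figure D1:**
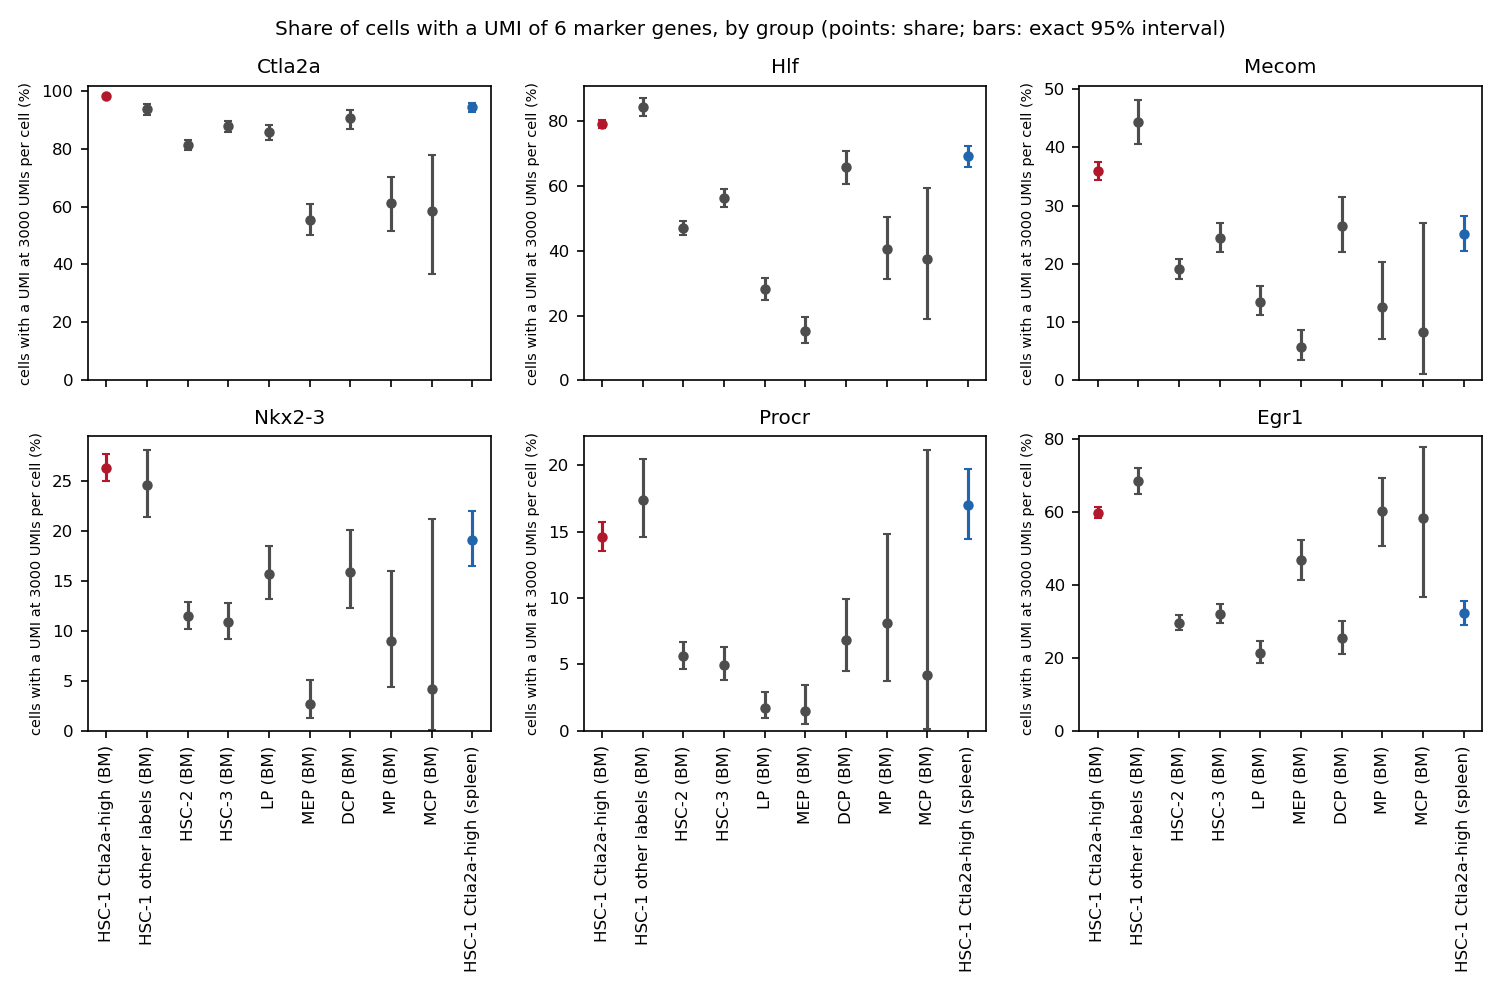
Share of cells (percent) with at least 1 UMI of each marker after thinning to 3000 UMIs, by group, with exact 95% intervals as bars. Ctla2a was in 98.1% of Ctla2a-high HSC-1 cells against 82.0% of cells in other bone marrow clusters, and Procr in 14.6% against 4.71%.

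Ctla2a has a near neighbour, Ctla2b, on the same strand of chromosome 13, and both were higher in the Ctla2a-high HSC-1 cells. Ctla2a lies at 60934155 to 60936625 and Ctla2b at 60895350 to 60897447 (mm10, minus strand). Ctla2b was at 21.1 CPM in the Ctla2a-high HSC-1 cells and at 9.41 CPM in the other clusters, 2.25-fold higher (1.97 to 2.56). The longest coding transcripts share 826 of 1044 aligned bases (79.1%), and the 250 bases before the starts share 208 of 228 aligned bases (91.2%), so reads of these genes could be split between them and their levels are uncertain to that degree. The upstream sequences are shown because they are so alike in a pair of genes that differ in level. They are from RefSeq (GRCm38.p6, minus strand), Ctla2a at chr13:60936626-60936875, the first of 2 listed starts, and Ctla2b at chr13:60897448-60897697. Capitals mark TGACG on either strand, the core of the cyclic AMP response element.
Ctla2a: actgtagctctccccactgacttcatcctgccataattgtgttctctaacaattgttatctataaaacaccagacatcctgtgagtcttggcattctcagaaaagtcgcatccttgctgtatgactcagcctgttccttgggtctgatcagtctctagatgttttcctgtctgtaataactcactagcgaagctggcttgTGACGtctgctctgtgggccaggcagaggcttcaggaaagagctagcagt
Ctla2b: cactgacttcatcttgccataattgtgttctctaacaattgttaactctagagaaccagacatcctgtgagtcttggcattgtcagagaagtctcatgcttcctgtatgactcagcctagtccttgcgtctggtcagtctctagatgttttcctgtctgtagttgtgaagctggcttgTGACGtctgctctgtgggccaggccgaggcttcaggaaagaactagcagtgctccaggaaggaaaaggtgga

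Across the genome, few genes set the Ctla2a-high HSC-1 cells apart by 2-fold or more. The comparison with the other bone marrow clusters took in 8744 genes whose mean level reached 10 CPM. In the Ctla2a-high HSC-1 cells 148 of them (1.69%) were higher by 2-fold or more, and 387 (4.43%) were lower by as much. The median log2 ratio of all genes, with 1 CPM added to each level, was 0.09. With TMM scaling the median was −0.08 and the counts were 72 higher and 489 lower, so that genes higher in the Ctla2a-high HSC-1 cells made up 12.8% of those past the fold, against 27.7% without it. Among cells called G1 only, 74 genes were higher and 89 lower. Of the 148 higher genes, 102 were above the level in every one of the 7 other clusters. Of the 387 lower genes, 238 were below every other cluster. These genes were picked against the pool of the same clusters, so high counts follow in part from that choice. The share among all genes was not worked out.

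Genes of the stem cell lists were higher more often than genes at large. For gene lists a change of at least 1.5-fold is counted, which 9.15% of all genes passed upward and 9.26% downward. In every list, a gene under 10 CPM in a group was measured only through the other group. Such a gene could not count as higher in the group where it was low. Of 30 measured transcription regulators of stem cells, 17 were higher and 1, Gfi1b, was lower, with a median log2 ratio of 0.65 against 0.09 for all genes. Their summed level was 5272 CPM in the Ctla2a-high HSC-1 cells and 3166 CPM in the other clusters. The 17 higher genes include the markers Hlf, Mecom, Nkx2-3 and Egr1, so this list partly repeats the marker values. Meis1, a homeobox partner of the Hox factors, was at 357 CPM against 189 CPM, and Hoxa9 was at 152 CPM against 90.3 CPM. Prdm16, a zinc finger factor needed for stem cell maintenance, was at 29.0 CPM against 13.6 CPM. Mllt3, which sustains stem cell self-renewal, was at 95.6 CPM against 45.2 CPM. Gfi1b, a repressor that acts in erythroid and megakaryocyte cells, was at 32.9 CPM in the other clusters and 1.64-fold lower in the Ctla2a-high HSC-1 cells.

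Of 20 measured surface and signalling genes of stem cells, 10 were higher and 0 lower, with a median of 0.49. Of 19 stem cell genes of other function, 15 were higher and 0 lower, with a median of 0.95. The marker Procr is among the 10 and the marker Ctla2a among the 15, so these lists also partly repeat the marker values. Esam, an adhesion molecule, was at 37.1 CPM in the Ctla2a-high HSC-1 cells against 16.4 CPM in the other clusters. Fgd5, a guanine nucleotide exchange factor largely restricted to stem cells in the marrow, was at 21.9 CPM against 6.32 CPM, 3.47-fold higher. It reached the minimum mean of 10 CPM only through its level in the Ctla2a-high HSC-1 cells. Ly6a, the gene of the Sca1 antigen used in the sort, was at 110 CPM against 49.3 CPM and at 5.96 CPM in MEP cells. Slamf1, the gene of CD150 on long-term stem cells, did not follow this order, with 8.05 CPM against 9.43 CPM. Its mean was below the 10 CPM minimum, so the count of 0 lower leaves it out. Vwf, a platelet adhesion protein gene of the same list, was left out too. At equal depth Vwf was seen in 1.24% of Ctla2a-high HSC-1 cells and 2.19% of cells in other clusters. Cd48, found on multipotent progenitors, was at 51.7 CPM against 83.2 CPM, and Cd34, which marks progenitors past the long-term stem cell, at 409 CPM against 342 CPM.

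Genes outside the stem cell lists were also among the 12 with the largest ratio above 50 CPM. Ltb, a membrane-bound member of the tumour necrosis factor family, was at 213 CPM against 66.8 CPM, 3.19-fold higher. Itsn1, an endocytic scaffold, was at 76.1 CPM against 24.1 CPM, and Rora, a nuclear receptor, at 56.2 CPM against 20.2 CPM. Txnip, an inhibitor of thioredoxin that restrains glucose uptake and a member of the stem cell list of other function, was at 816 CPM against 317 CPM, 2.58-fold higher.

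**Figure D2:**
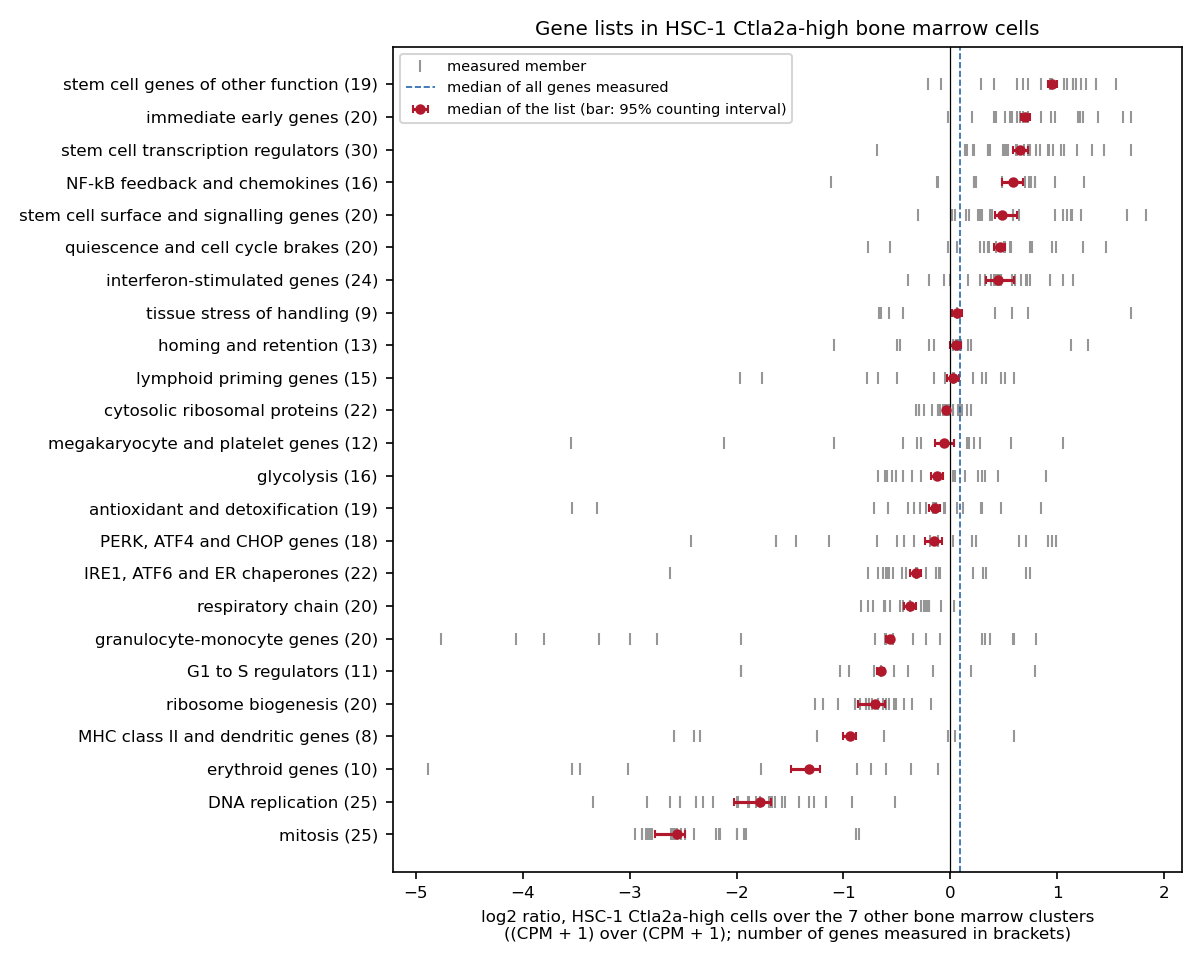
Log2 ratio of the Ctla2a-high HSC-1 cells over the other bone marrow clusters for gene lists. Grey ticks are measured genes and red points are list medians. Bars run between the medians of the genes' own 95% counting limits, so they are not intervals of the list median. Mitosis genes had a median of −2.56 and stem cell transcription regulators a median of 0.65, beside 0.09 for all genes.

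Genes of the dividing cell were low in the Ctla2a-high HSC-1 cells. Of 25 measured mitosis genes, 25 were lower by at least 1.5-fold, with a median log2 ratio of −2.56, and of 25 DNA replication genes, 24 were lower, with a median of −1.78. Mki67, the gene of the Ki-67 antigen of cycling cells, was at 90.6 CPM against 640 CPM, 7.07-fold lower. Rrm2, a subunit of the ribonucleotide reductase that makes DNA precursors, was at 2.79 CPM against 37.3 CPM, and Tk1, thymidine kinase, at 4.56 CPM against 62.3 CPM. Rrm2 reached the minimum mean of 10 CPM only through the other clusters, so it could not count as higher. The same holds for any listed gene under 10 CPM in the Ctla2a-high HSC-1 cells. The histone gene Hist1h1b was at 76.5 CPM against 770 CPM. Among cells called G1 in each group, the medians were −0.51 for mitosis and −0.81 for DNA replication genes. The phase calls read these same lists, so keeping G1 cells picks cells low in them, and these medians are no separate evidence.

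Of 20 measured quiescence genes and cell cycle brakes, 6 were higher and 1 lower, with a median of 0.46. The list summed to 3037 CPM in the Ctla2a-high HSC-1 cells and 2094 CPM in the other clusters together, but to 3663 CPM in MP cells. Cdkn1c, which encodes the cyclin-dependent kinase inhibitor p57, was at 19.9 CPM in the Ctla2a-high HSC-1 cells against 6.61 CPM in the other clusters, 3.0-fold higher. Cdkn1c reached the minimum mean of 10 CPM only through its level in the Ctla2a-high HSC-1 cells. Rbl2, a pocket protein of resting cells, was at 112 CPM against 65.8 CPM. Of 11 regulators of the step into S phase, 1 was higher and 6 lower. Cdk6, whose kinase drives exit from quiescence, was at 367 CPM against 577 CPM, while Ccnd3, a cyclin that binds it, was at 183 CPM against 105 CPM.

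Phase calls were made from the mitosis and DNA replication lists on cells thinned to 3000 UMIs. They put 89.7% of the Ctla2a-high HSC-1 cells in G1, 6.67% in S and 3.58% in G2/M. The other bone marrow clusters had 27.7% in G1, 39.1% in S and 33.2% in G2/M. LP cells had 72.4% in G1, HSC-2 cells 28.7% and HSC-3 cells 0.731%. These clusters were made from the genes that the calls read, and a call of G1 does not separate resting cells from cells in G1.

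**Figure D3:**
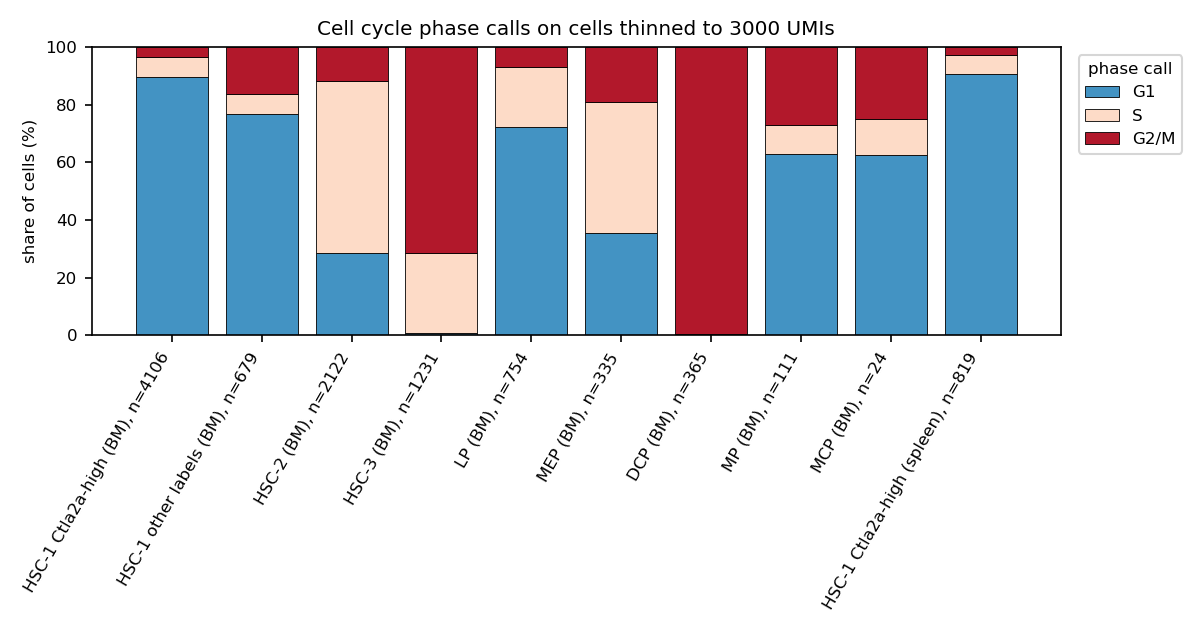
Share of cells (percent) called G1, S or G2/M after thinning to 3000 UMIs, by group. The Ctla2a-high HSC-1 cells had 89.7% in G1, against 27.7% in the other bone marrow clusters, and spleen HSC-1 cells of the same label had 90.7%.

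Genes for making ribosomes and for respiration were also lower in part. Of 20 measured ribosome biogenesis genes, 14 were lower and 0 higher, with a median of −0.70. Npm1, a nucleolar chaperone, was at 1061 CPM against 1694 CPM, and Nolc1, a nucleolar scaffold, at 56.1 CPM against 136 CPM. Of 22 cytosolic ribosomal protein genes, 0 passed 1.5-fold in either direction, with a median of −0.04. Of 20 respiratory chain genes, 6 were lower and 0 higher, with a median of −0.38, and of 16 glycolysis genes, 1 was higher and 3 lower, with a median of −0.12.

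Many genes of the granulocyte and erythroid lists were lower in the Ctla2a-high HSC-1 cells. Of 20 measured granulocyte-monocyte genes, 10 were lower and 3 higher, with a median of −0.57. Elane, neutrophil elastase, was at 19.2 CPM in the Ctla2a-high HSC-1 cells and at 548 CPM in the other clusters, 28.6-fold lower (26.0 to 31.5), and Mpo, myeloperoxidase, was at 109 CPM against 876 CPM, 8.06-fold lower. HSC-2 cells held the highest of these levels, with 1272 CPM of Elane and 1788 CPM of Mpo. Of 10 measured erythroid genes, out of 23 listed, 8 were lower and 0 higher, with a median of −1.32. Genes under 10 CPM in the Ctla2a-high HSC-1 cells, such as Car1, were measured only through the other clusters and could not count as higher. The list summed to 209 CPM in the Ctla2a-high HSC-1 cells and 4289 CPM in MEP cells. In the remaining clusters it summed to between 176 CPM, in MP, and 405 CPM, in HSC-2. Car1, carbonic anhydrase of red cell progenitors, was at 6.02 CPM against 206 CPM, 34.2-fold lower (28.9 to 40.8), and MEP cells stood at 2255 CPM. Set against HSC-2, HSC-3 and LP cells alone, the log2 ratio of Car1 was 0.12. Pf4, a platelet chemokine, was at 14.7 CPM against 182 CPM and at 381 CPM in HSC-2 cells.

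The lymphoid and antigen presentation lists were mixed. Of 15 measured lymphoid priming genes, 1 was higher and 4 lower, with a median of 0.02 that became −0.14 with TMM scaling and −0.07 when centred on the median gene. Dntt, the terminal transferase of early lymphoid cells, was at 65.7 CPM against 225 CPM, with 1246 CPM in LP cells. Flt3, a cytokine receptor of multipotent and lymphoid progenitors, was at 330 CPM against 269 CPM, with 558 CPM in LP cells. Of 8 MHC class II and dendritic genes, 5 were lower and 1 higher, with a median of −0.94, which became 0.22 against HSC-2, HSC-3 and LP cells alone.

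The smaller lists moved little or held few measured genes. Of 12 megakaryocyte and platelet genes, 1 was higher and 3 lower, with a median of −0.06, and of 19 antioxidant genes, 1 was higher and 3 lower, with a median of −0.15. Of 13 homing and retention genes, 2 were higher and 1 lower, with a median of 0.05 that became −0.12 with TMM scaling. Cpa3, a mast cell protease, was the lower of 2 measured mast cell genes, and of 3 T, NK and B lineage genes, Gata3 was higher and Nkg7 lower.

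Markers of other cell types were summed over each group. Mast cell and basophil markers summed to 8.23 CPM in the Ctla2a-high HSC-1 cells and 55.5 CPM in the other clusters, and T or NK cell markers to 83.0 CPM and 136 CPM, with Cd3e at 0. Hepatoma or hepatocyte markers summed to 3.98 CPM and 5.13 CPM, and Alb, Ttr and Serpina1a were at 0. Granulocyte-monocyte progenitor markers summed to 858 CPM and 3122 CPM, and stroma or endothelium markers to 140 CPM and 106 CPM. Erythroid progenitor markers, a set that overlaps the erythroid list, were higher in the Ctla2a-high HSC-1 cells, at 851 CPM and 781 CPM. Of the 8 markers only Car2, another carbonic anhydrase, reached 10 CPM in these cells, at 838 CPM against 523 CPM. Gp1bb of platelets was at 0.

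Immediate early genes, which are transcribed within minutes of a stimulus, were higher as a list. Of 20 measured, 13 were higher and 0 lower, with a median of 0.70 and a summed level of 5926 CPM against 3346 CPM. The 13 include the marker Egr1, which was also counted among the stem cell transcription regulators, so this list partly repeats the marker values. The list summed higher in MP cells, at 8179 CPM, in MCP cells, at 10874 CPM, and in other-labelled HSC-1 cells, at 6014 CPM. Jun, a subunit of the AP-1 factor, was at 1068 CPM against 716 CPM, and its partner Fos at 448 CPM against 271 CPM. Junb was at 342 CPM against 148 CPM, 2.32-fold higher, and Nr4a1, an orphan nuclear receptor, at 42.6 CPM against 13.3 CPM, 3.21-fold higher. Dusp1, a phosphatase that turns off MAP kinases, was at 175 CPM against 119 CPM, and Fosb was at 166 CPM against 144 CPM. Among cells called G1 the median of the list was 0.45. Genes known to respond to tissue handling include many immediate early genes. A list of 9 measured stress genes of handling had 2 higher and 2 lower, with a median of 0.06 that became −0.11 with TMM scaling. The 2 higher were Fos and Egr1, which are also in the immediate early list, so the lists overlap. The 2 lower were the heat shock genes Hsp90aa1 and Hspe1. The part that sorting and dissociation had in these levels was not tested.

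The 250 bases before the starts of 4 of these genes are shown because each holds the letters TGACG, so they do not stand for the whole list. Jun, which varied more among the cells than Fos, holds none and is not shown. Sequences are from RefSeq (GRCm38.p6), and capitals again mark TGACG on either strand. Fosb is at chr7:19310046-19310295 (minus strand), Fos at chr12:85473640-85473889 (plus strand), Junb at chr8:84978749-84978998 (minus strand) and Dusp1 at chr17:26508473-26508722 (minus strand).
Fosb: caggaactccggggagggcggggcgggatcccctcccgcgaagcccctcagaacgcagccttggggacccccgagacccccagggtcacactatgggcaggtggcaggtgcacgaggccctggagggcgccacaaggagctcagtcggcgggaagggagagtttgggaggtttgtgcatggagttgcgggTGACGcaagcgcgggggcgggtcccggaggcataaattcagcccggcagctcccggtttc
Fos: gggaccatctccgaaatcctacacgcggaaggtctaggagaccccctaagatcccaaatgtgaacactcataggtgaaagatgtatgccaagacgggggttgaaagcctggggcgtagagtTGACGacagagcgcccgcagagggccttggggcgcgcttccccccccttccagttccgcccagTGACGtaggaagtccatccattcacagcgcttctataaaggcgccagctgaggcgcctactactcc
Junb: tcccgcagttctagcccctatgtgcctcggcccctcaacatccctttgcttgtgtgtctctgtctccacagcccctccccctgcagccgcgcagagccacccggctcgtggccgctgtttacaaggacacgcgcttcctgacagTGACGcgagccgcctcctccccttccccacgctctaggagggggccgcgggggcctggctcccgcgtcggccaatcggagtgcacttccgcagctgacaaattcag
Dusp1: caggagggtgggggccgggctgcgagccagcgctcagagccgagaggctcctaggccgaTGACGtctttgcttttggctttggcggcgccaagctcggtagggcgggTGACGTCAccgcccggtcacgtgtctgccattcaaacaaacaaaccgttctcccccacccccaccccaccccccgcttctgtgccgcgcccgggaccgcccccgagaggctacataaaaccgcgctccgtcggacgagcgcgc

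The letters TGACG occurred in this window in 13 of 22 immediate early genes (59.1%), against 5347 of 27025 genes with a window (19.8%). In Dusp1, matches on both strands overlap. The letters TATAAA occurred in 3 of the 22 genes (13.6%), against 14.3% of all genes. Jun and Zfp36 held no TGACG in these windows. A match of letters is no proof of a bound site.

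Related signalling lists were higher to a lesser degree. Of 16 measured genes of NF-kB feedback and chemokines, 8 were higher and 1 lower, with a median of 0.59, which was 0.18 among cells called G1. Nfkbiz, a nuclear regulator of NF-kB targets, was at 144 CPM against 59.9 CPM, and the chemokines Ccl3 and Ccl4 were at 154 CPM against 88.8 CPM and 182 CPM against 91.8 CPM. LP cells were above the Ctla2a-high HSC-1 cells in this list, which summed to 1465 CPM in the Ctla2a-high HSC-1 cells, 1744 CPM in LP cells and 2001 CPM in MCP cells. Ccl3 was seen in 21.7% of the Ctla2a-high HSC-1 cells against 35.4% of LP cells at equal depth, and in 28.2% against 50.4% without thinning. Of 24 interferon-stimulated genes, 8 were higher and 0 lower, with a median of 0.45, which was 0.18 among cells called G1. Rsad2, the antiviral protein viperin, was at 38.9 CPM against 17.1 CPM, and Iigp1, an interferon-induced GTPase, at 46.0 CPM against 21.7 CPM.

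The study's title names PERK, a kinase of the endoplasmic reticulum that answers unfolded protein by raising ATF4. Its gene, Eif2ak3, was at 9.69 CPM in the Ctla2a-high HSC-1 cells and 9.73 CPM in the other clusters, a ratio of 0.996 (0.844 to 1.17). Of 18 measured PERK, ATF4 and CHOP genes, 5 were higher and 5 lower, with a median of −0.15. Atf4 was at 208 CPM against 181 CPM. Ppp1r15a, the phosphatase subunit that ends the response and also an immediate early gene, was at 203 CPM against 102 CPM. Psat1 and Mthfd2, enzymes of serine and one-carbon metabolism under ATF4, were at 19.5 CPM against 62.5 CPM and 3.63 CPM against 23.9 CPM. Of 22 genes of the IRE1 and ATF6 branches and chaperones, 2 were higher and 5 lower, with a median of −0.32, and the chaperone Hspa5 was at 309 CPM against 338 CPM.

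Cluster by cluster, the Ctla2a-high HSC-1 cells differed in the fewest genes from LP and DCP cells. Against LP, 197 of 8643 genes were at least 2-fold higher (2.28%) and 137 lower (1.59%). Against DCP, 110 of 8715 genes were higher (1.26%) and 319 lower (3.66%). Against HSC-2, 261 of 8699 were higher (3.0%) and 374 lower (4.30%), and against HSC-3, 206 of 8729 were higher (2.36%) and 455 lower (5.21%). MEP cells were the farthest, with 1675 of 8515 genes higher (19.7%) and 942 lower (11.1%) in the Ctla2a-high HSC-1 cells. Against MP, 634 of 8744 genes were higher (7.25%) and 638 lower (7.3%). MCP held 36 cells, so its counts of 834 higher (9.70%) and 575 lower (6.69%) of 8594 genes rest on little depth.

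Within the HSC-1 cluster, the Ctla2a-high cells held less megakaryocyte and mitosis RNA and more lymphoid RNA than the cells with another atlas label. Of 8797 genes, 38 were at least 2-fold higher (0.432%) and 118 lower (1.34%) in the Ctla2a-high cells, and 1.76% and 3.35% passed 1.5-fold. The other labels were mostly a fetal liver stem and progenitor label (351 cells) and a megakaryocyte progenitor label (344 cells). Labels were assigned from expression, so these differences describe how the labels divide the cluster. Ctla2a was at 2228 CPM against 1798 CPM, and Nkx2-3 at 106 CPM against 100.2 CPM. Mecom was lower in the Ctla2a-high cells, at 157 CPM against 201 CPM (ratio 0.781, 0.723 to 0.845), and so was Egr1, at 609 CPM against 774.5 CPM (ratio 0.786, 0.756 to 0.818). For Hlf, at 670 CPM against 693 CPM (0.928 to 1.007), Procr, at 55.2 CPM against 61.2 CPM (0.785 to 1.04), and Nkx2-3 (0.948 to 1.18) the counting interval of the ratio included 1. At equal depth Mecom was seen in 35.9% of Ctla2a-high cells against 44.3%, Hlf in 79.2% against 84.4%, Procr in 14.6% against 17.4% and Egr1 in 59.9% against 68.6%. Without thinning these shares were 50.7% against 61.3%, 89.0% against 92.4%, 23.0% against 25.3% and 68.7% against 76.4%. Of 31 stem cell transcription regulators, 1 was higher and 5 lower in the Ctla2a-high cells, with a median of −0.15 and a summed level of 5272 CPM against 5863 CPM. Of 23 surface and signalling genes of stem cells, 8 were lower and 0 higher in the Ctla2a-high cells, with a median of −0.21. Slamf1 was at 8.05 CPM against 27.3 CPM, and Esam at 37.1 CPM against 74.1 CPM. Vwf, a platelet adhesion protein of megakaryocyte-biased stem cells, was at 4.69 CPM against 16.7 CPM, and Cdkn1c at 19.9 CPM against 49.3 CPM.

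Of 13 megakaryocyte genes, 7 were lower and 1 higher in the Ctla2a-high cells, with a median of −0.63, and of 24 mitosis genes, 24 were lower, with a median of −1.81. Mki67 was at 90.6 CPM against 357 CPM, and the spindle protein gene Aspm at 12.4 CPM against 60.7 CPM. Cells called G2/M made up 3.58% of the Ctla2a-high cells and 16.2% of the other-labelled cells. Of 14 lymphoid priming genes, 7 were higher and 0 lower, with a median of 0.64, and of 17 granulocyte-monocyte genes, 7 were higher and 0 lower, with a median of 0.42. Dntt was at 65.7 CPM against 9.36 CPM, 7.02-fold higher (5.07 to 10.0), and Flt3 at 330 CPM against 142 CPM. Wfdc17, a secreted protein of activated myeloid cells, was at 228 CPM against 37.4 CPM, 6.08-fold higher, and Ccl3 at 154 CPM against 33.4 CPM, 4.62-fold higher.

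**Figure D4:**
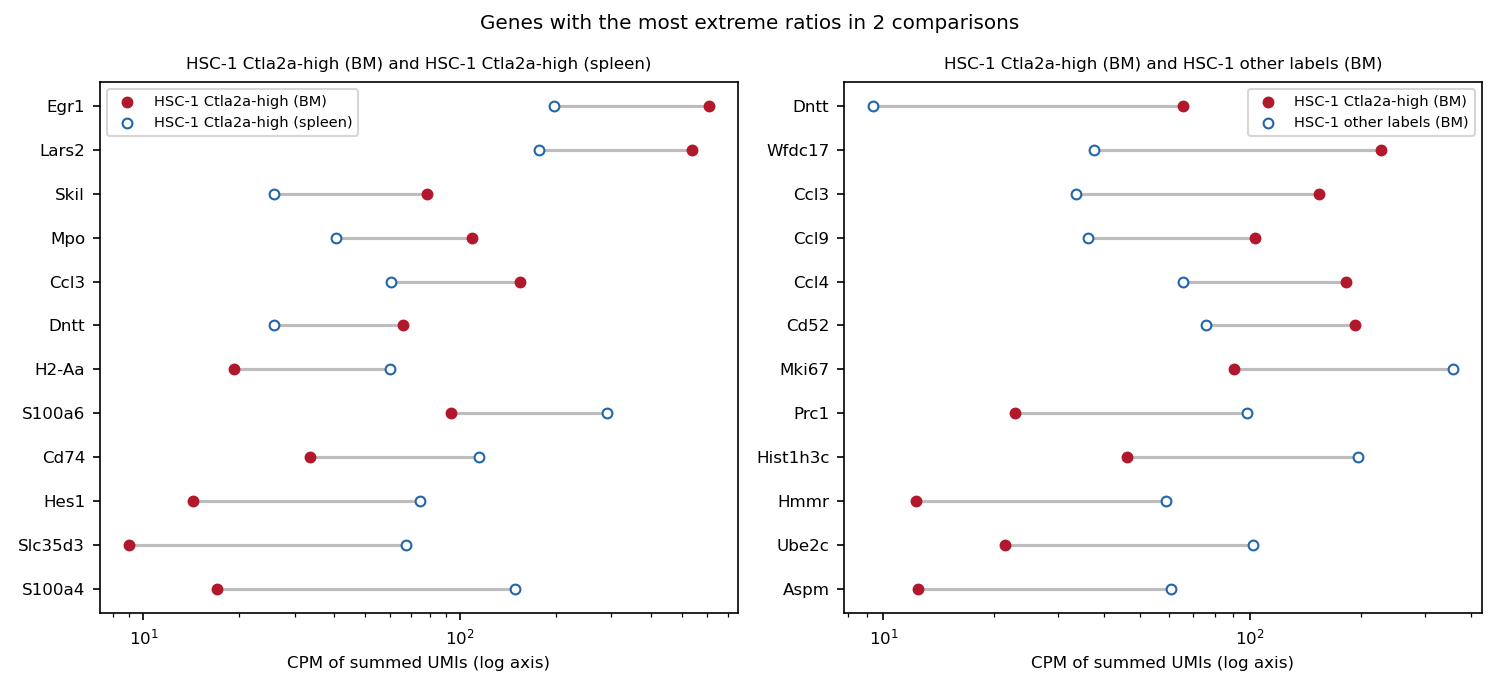
Level (CPM, log axis) of the 6 genes with the highest and the 6 with the lowest ratio above 50 CPM, in Ctla2a-high HSC-1 cells of bone marrow (filled points) and, as open points, in spleen HSC-1 cells of the same label (left) or other-labelled bone marrow HSC-1 cells (right). Egr1 was at 609 CPM against 198 CPM in the left panel and Dntt at 65.7 CPM against 9.36 CPM in the right one, and both panels share the filled points.

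Spleen HSC-1 cells with the same label were close to the bone marrow ones. Of 8674 genes, 40 were at least 2-fold higher (0.461%) and 32 lower (0.369%) in bone marrow, and 2.21% and 1.83% passed 1.5-fold. The median depth was 4780.5 UMIs in bone marrow cells and 6890 in spleen cells. Both groups were chosen by the same cluster and label, which were made from expression, so few differences follow in part from that choice. Tissue and library cannot be told apart in this comparison. Ctla2a was at 2228 CPM in bone marrow against 1321 CPM in spleen, Hlf at 670 CPM against 470 CPM and Mecom at 157 CPM against 107 CPM, while Procr was at 55.2 CPM against 63.7 CPM. Of 30 stem cell transcription regulators, 3 were higher and 1 lower, with a median of 0.15. Mycn, a growth regulator, was at 41.9 CPM against 105 CPM. Of 18 measured mitosis genes, 9 were higher and 0 lower in bone marrow, with a median of 0.59. The whole mitosis list summed to 647 CPM in bone marrow against 387 CPM in spleen.

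Immediate early genes split between the tissues. Of 21 measured, 6 were higher and 2 lower in bone marrow, with a median of 0.16. Egr1 was at 609 CPM against 198 CPM, 3.08-fold higher (2.90 to 3.27), and Nr4a1 at 42.6 CPM against 8.43 CPM, 5.05-fold higher. Fosb was at 166 CPM against 497 CPM, 3.0-fold lower (2.85 to 3.15), and Fos was at 448 CPM against 454 CPM. Of 17 PERK, ATF4 and CHOP genes, 4 were higher and 0 lower, with a median of 0.13, namely Atf4, Trib3, Sesn2 and Vldlr, and Atf4 was at 208 CPM against 131 CPM.

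Of 8 MHC class II and dendritic genes, 4 were lower and 0 higher in bone marrow, with a median of −0.67, and of 25 interferon-stimulated genes, 0 passed in either direction. Cd74, the invariant chain of MHC class II, was at 33.6 CPM against 115 CPM, and S100a4, a calcium-binding protein of motile and myeloid cells, at 17.1 CPM against 149 CPM, 8.71-fold lower. Markers of other cells moved with this comparison. Mast cell and basophil markers summed to 8.23 CPM in bone marrow and 134 CPM in spleen, with the protease Cma1 at 0.487 CPM against 27.6 CPM. T or NK cell markers summed to 83.0 CPM and 271 CPM, with Cd3e at 0 in both, and dendritic cell or macrophage markers to 538 CPM and 857 CPM. The part of RNA from other cells in these differences was not tested. Lars2 was at 540 CPM against 178 CPM, beside the gene model Gm42418, which overlaps ribosomal RNA, at 26666 CPM against 8101 CPM.

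Apart from the RNAs Gm42418 and Malat1, the Ctla2a-high HSC-1 cells varied among themselves most in immediate early genes, chemokines and Mki67. Over 4750 genes with enough UMIs in the 4106 thinned cells, the median ratio of variance to mean was 1.03, and 22 genes reached 2. Gm42418 had 15.6 and Malat1 11.8, and both were seen in every cell. Fosb had a ratio of 5.42, and was seen in 16.9% of the cells. Jun had a ratio of 4.50 and was seen in 78.3%, and Fos had a ratio of 3.39 and was seen in 51.5%. Wfdc17 had 3.56 with 29.9% of cells, Ccl4 had 3.22 with 28.1%, Ccl3 had 3.07 with 21.7% and Mki67 had 3.17 with 10.8%. Ctla2a, in 98.1% of the cells, had 3.03. The immediate early genes summed to a median of 15 UMIs per thinned cell, with 10% of cells at or under 6, 10% at or above 33 and a highest value of 90.

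The authors' pseudotime ordered 3885 of the Ctla2a-high HSC-1 cells, whose median was 5.79, against 11.6 in 1302 ordered cells of other clusters. The ordered cells were divided here into 5 groups of 777 cells from the lowest to the highest pseudotime. The order was built from expression, so levels along it are a description. Fosb was at 40.9, 42.2, 159, 153 and 447 CPM from the earliest to the latest group, and Fos at 243, 384, 476, 508 and 737 CPM. Dntt was at 21.2, 35.0, 49.0, 69.5 and 166 CPM, and Mki67 at 40.9, 53.6, 79.4, 91.1 and 185 CPM. Each of these was highest in the latest group, which also held 83.6% of cells in G1 against 94.3% in the earliest.

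Ctla2a went the other way, at 2813, 2483, 2318, 2091 and 1696 CPM, and Hlf was at 783, 769, 744, 653 and 510 CPM. Mecom was at 152, 166, 180, 191 and 124 CPM, and Egr1 at 397, 598, 740, 847 and 633 CPM, so both were highest in the group before the latest. Setting the latest group over the earliest, 1.85% of 8666 genes were at least 1.5-fold higher and 1.48% lower. Of 20 immediate early genes, 14 were higher, of 18 mitosis genes, 17 were higher, and of 30 stem cell transcription regulators, 1 was higher and 2 lower.

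**Figure D5:**
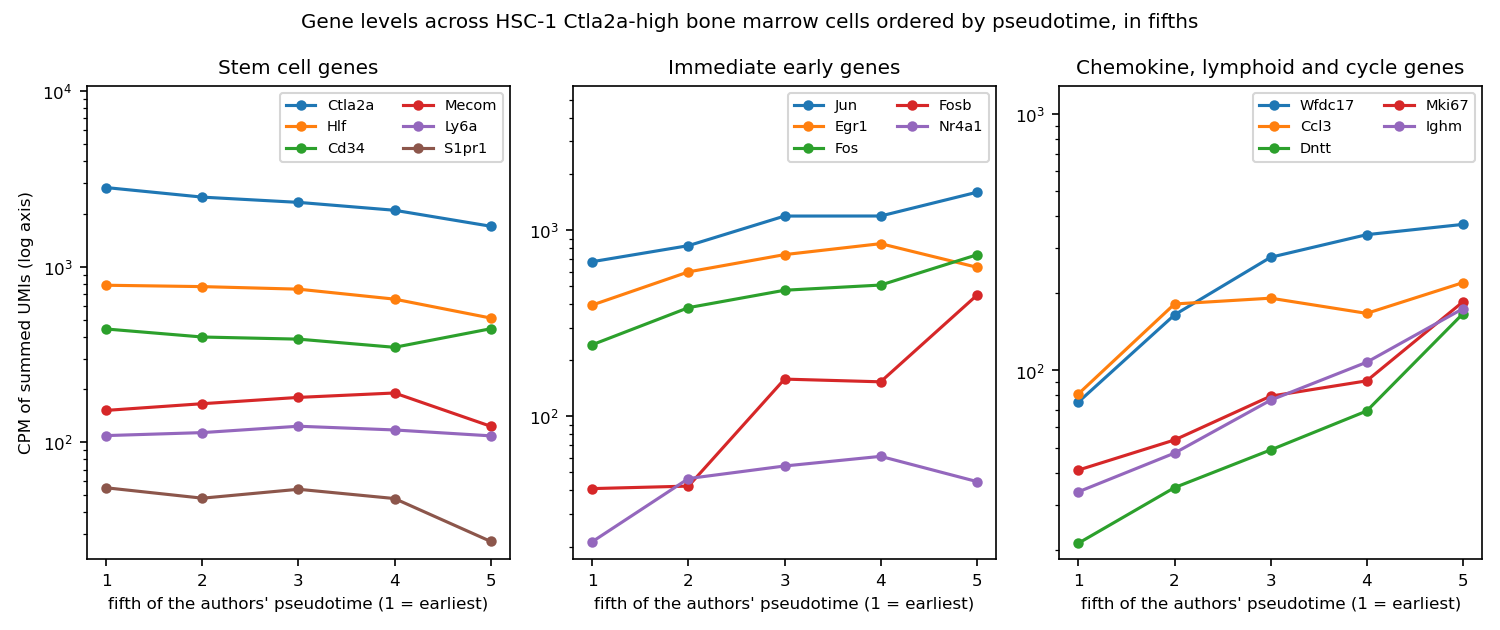
Level (CPM, log axis) of named genes in 5 groups of 777 Ctla2a-high HSC-1 cells in order of the authors' pseudotime. Ctla2a was at 2813 CPM in the earliest group and 1696 CPM in the latest, and Fosb at 40.9 and 447 CPM.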

How the data were processed

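RNA of LSK cells was measured by the Chromium 3′ assay in 1 bone marrow and 1 spleen library. The deposited tables hold raw UMI counts of 31053 genes per cell; the authors counted them with Cell Ranger 3.1.0 on mm10 from some 27000 reads a cell, per the design text, while the submitters' processing notes list mm9 and Seurat 3.1.5. The cell table's stemness, myeloid, erythroid and ER stress scores and its pseudotime are score columns deposited by the authors, whose making is not given in the sources used here, nor is a filter on cells or doublets, and no doublet caller was run. The deposited integrated normalized table was not used.

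Symbols were found for 30934 identifiers, and coordinates come from GENCODE M21. Counts were summed per group and scaled to CPM. Ratios carry exact 95% intervals, and log2 ratios use 1 CPM added to each level over genes whose mean reached 10 CPM. Shares and phase calls (scanpy 1.11.5) used cells thinned to 3000 UMIs, which left out 224 of the 4330 Ctla2a-high HSC-1 cells and 97 cells of other clusters. Scripts were tested on simulated data (Python 3.11.15, scipy 1.17.1, edgeR 4.0.16 for TMM scaling only). Named genes are the 12 highest and 12 lowest above 50 CPM in the main comparison, 6 in the others, the 2 at each end of each list and the markers; other names were chosen after their values were seen. The cells, markers and 26 gene lists were chosen with earlier results of these data known. Some items are not reported here.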

Additional observations from a re-analysis of the deposited data

How the results depend on the processing

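The counts of genes past 2-fold depended on the minimum level and on the pseudocount. Against other bone marrow clusters the 148 higher genes became 72 with TMM scaling, 223, 32 and 329 with a minimum of 5 CPM, 50 CPM and none, 76 with a pseudocount of 5 CPM and 74 in G1 cells. The 387 lower genes became 135 at 50 CPM, 648 with no minimum and 89 in G1 cells. Against spleen the 40 higher genes became 66, 11 and 144 at 5 CPM, 50 CPM and no minimum and 24 with the larger pseudocount, and the 32 lower genes 58, 10 and 130. Against other-labelled HSC-1 cells the 38 higher genes became 59, 13, 142 and 22 in the same order, and the 118 lower genes 187, 18 and 292, with 63 in G1 cells. The share of 42.9% became 50.0% with all HSC-1 cells and 71.4% with the label in any cluster. The median of the mast cell list was 0.079 with a minimum of 50 CPM. Against HSC-2, HSC-3 and LP alone the log2 ratios were 0.22 for the MHC class II list, 0.12 for Car1, 1.12 for Cd74, 0.81 for H2-Aa and 0.84 for H2-Eb1. In G1 cells against other-labelled ones they were 0.18 for Hist1h3c, 0.042 for Hmmr and 0.072 for Prc1. The cause was not tested. Leaving out the shared cell barcodes, an alternative added after seeing the data, gave 40 higher and 32 lower genes against spleen, as before. No paired analysis was possible because each tissue has 1 library.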

Other observations

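The authors' scores also placed the Ctla2a-high HSC-1 cells. The median stemness score was −0.083 in these cells, 0.185 in the other bone marrow clusters and 0.547 in MEP cells, so the score named for stemness was lower in the cells with the higher levels of Hlf, Mecom and Procr. The median ER stress score was 0.068 in the Ctla2a-high HSC-1 cells, 0.079 in the other bone marrow clusters and 0.090 in spleen HSC-1 cells of the same label. The median myeloid score was 0.018 in the Ctla2a-high HSC-1 cells and 0.065 in the other bone marrow clusters. The genes behind these scores are not given in the sources used here.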
